A study of Mus musculus with 9 samples.

Results

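Intestinal identity is held by a small group of transcription factors. The group described here is made of Cdx1, Cdx2, Hnf4a, Hnf4g, Gata4, Gata5, Gata6 and Foxa2. These 8 genes were picked by name for their known part in gut identity. Earlier results of these data were known when they were picked. All 8 were found among the 46517 genes counted, and all 8 were among the 14870 genes that passed a filter on low counts and were tested. The libraries were made from mouse intestinal stem cells that had been dissociated, embedded in 1 of 3 gels and grown into colonies for 4 days. The gels were Matrigel, a basement membrane extract from a mouse tumour, and polyethylene glycol (PEG), a synthetic polymer, in a degradable and a non-degradable form. Each gel had 3 libraries, 9 in all. Every group received EGF, noggin and R-spondin, together with CHIR99021, a GSK3 inhibitor that activates Wnt signalling, and valproic acid, a histone deacetylase inhibitor. Mouse strain, sex, age and gut segment are not given in the labels used here.

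The factors fall into 4 families that bind DNA in different ways. Cdx1 and Cdx2 are caudal-type homeodomain proteins that set and keep intestinal fate, and loss of Cdx2 from gut endoderm turns it towards a foregut, stomach-like or squamous character. Hnf4a and Hnf4g are nuclear receptors that act together on the brush border and lipid genes of enterocytes, the absorptive cells of the villus. Gata4, Gata5 and Gata6 are zinc finger factors, of which Gata4 marks the proximal small intestine and restrains an ileal programme, while Gata6 is present along the whole bowel. Foxa2 is a forkhead factor that opens chromatin in endoderm before other factors bind.

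The stretches of DNA just upstream of start sites give the letters that these families read. RefSeq promoter windows on GRCm38.p6 matched 4 of the 8 factors. Cdx1, Hnf4g, Gata4 and Gata6 had no entry. The 250 bases before each start were searched on both strands for a CDX motif (TTTATNG), an HNF4 core motif (CAAAGNNCA) and a GATA motif (AGATAA). No matches of different motifs overlapped in the windows printed here. Of 32851 promoter windows of that length, 9.81% held the CDX letters, 5.49% the HNF4 letters and 9.99% the GATA letters. The Cdx2 window (chr5:147307250-147307499, minus strand) held none of the 3, and neither did that of Gata5. Foxa2 had 3 windows, which are not shown. That of start site 1 held the GATA letters 183 bases before the start, and those of sites 2 and 3 held no match. Hnf4a had 2 windows, and that of site 2 held no match. The upstream window of Hnf4a (chr2:163506607-163506832, plus strand, shortened to 226 bases) held the GATA letters 52 bases before the RefSeq start. That start lies downstream of the printed bases, which end inside the annotated transcript. Cdx2 is shown because its level differed between gels in the comparisons below, and Hnf4a because it was the most abundant factor. Motif matches are in capitals, and each sequence is written 5′ to 3′.
Cdx2: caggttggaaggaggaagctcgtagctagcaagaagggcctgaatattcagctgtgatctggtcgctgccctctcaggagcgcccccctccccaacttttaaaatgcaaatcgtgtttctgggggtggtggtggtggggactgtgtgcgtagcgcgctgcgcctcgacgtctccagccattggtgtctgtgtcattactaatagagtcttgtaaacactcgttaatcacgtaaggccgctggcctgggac
Hnf4a: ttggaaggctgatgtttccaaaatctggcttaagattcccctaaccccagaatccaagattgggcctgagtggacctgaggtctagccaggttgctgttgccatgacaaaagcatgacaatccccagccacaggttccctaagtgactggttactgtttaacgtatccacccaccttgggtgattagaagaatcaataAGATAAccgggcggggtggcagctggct
An absence of a match says only that those letters are not in the window, and a match is a description and not a bound site.

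3 genes known to lie downstream of these factors are shown beside them, picked by name from the lists below. Their fold changes between the PEG gels, given below, were larger than that of any factor. Other targets that are not shown differed by more than Sis and Alpi, among them Apoa1 (2.71 on the log2 scale) and the uncalled Apoa4 (3.65). Sis encodes sucrase-isomaltase, a brush border disaccharidase and a textbook Cdx2 target (chr3:72967864-72968113, minus strand). Alpi encodes intestinal alkaline phosphatase (chr1:87101607-87101856, minus strand). Fabp1 encodes the liver-type fatty acid binding protein (chr6:71199629-71199851, plus strand, shortened to 223 bases that end inside the annotated transcript).
Sis: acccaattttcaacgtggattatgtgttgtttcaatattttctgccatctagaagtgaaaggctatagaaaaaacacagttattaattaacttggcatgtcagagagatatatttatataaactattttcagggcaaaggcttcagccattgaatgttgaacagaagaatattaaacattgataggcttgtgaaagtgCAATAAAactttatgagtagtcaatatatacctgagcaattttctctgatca
Alpi: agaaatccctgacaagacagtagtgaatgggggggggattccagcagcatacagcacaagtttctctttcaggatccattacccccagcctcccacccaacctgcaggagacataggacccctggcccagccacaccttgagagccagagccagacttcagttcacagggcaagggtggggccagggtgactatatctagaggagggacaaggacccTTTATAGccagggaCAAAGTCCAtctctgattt
Fabp1: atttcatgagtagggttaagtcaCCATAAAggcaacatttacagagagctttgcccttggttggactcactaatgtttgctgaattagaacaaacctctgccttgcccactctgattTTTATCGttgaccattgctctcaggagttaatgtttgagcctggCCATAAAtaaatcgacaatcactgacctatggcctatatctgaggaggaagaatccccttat
The Sis window held 1 CDX match, 52 bases before the start. The Alpi window held a CDX match 33 bases and an HNF4 match 19 bases before the start. Fabp1 held 3 CDX matches, at 227, 133 and 89 bases before the RefSeq start, which lies downstream of the printed bases. Of 11 genes in a list of CDX targets, 7 had a promoter window, and 3 of the 7 held the CDX letters. Among 18 lipid export and brush border targets of HNF4, 14 had a window, of which 3 held the HNF4 letters and 4 the CDX letters.

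Depth ran from about 38016200 to 47212000 assigned reads per library, and no library was left out. The text below calls a gene changed where its Benjamini-Hochberg adjusted p over all tested genes was under 0.05 in edgeR's quasi-likelihood test, and levels are CPM, the counts per megaread of a library after scaling by edgeR's TMM factors. Whether the 3 libraries of a gel came from separate cultures or animals is not stated in the labels, so the p-values cover the spread among these libraries alone, and that spread may be technical. Both PEG gels are compared with the same Matrigel libraries, so the comparisons are not independent of each other. Epithelial markers were high: Epcam ranged from 1081 to 1331 CPM and Cdh1 from 1177 to 1502 CPM over the 9 libraries. Of the mesenchymal and blood markers Col3a1, Dcn, Lum, Foxf1 and Ptprc had 0 counts in all libraries, but others were present. Vim ranged from 76.8 to 265 CPM, Col1a1 from 2.39 to 5.73, Pdgfra from 1.59 to 3.64, Itgam from 1.24 to 3.83 and Cd68 from 1.18 to 2.57 CPM.

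Across the 3 comparisons the log2 fold changes of the identity factors ran from -0.29 to 0.39. The smallest in size, of Cdx1 in non-degradable PEG against Matrigel, exceeded that of 0.599% of tested genes. The largest, of Hnf4g between the PEG gels, exceeded that of 87.2%. Cdx2 was the only one of the 8 that passed the test, and it was higher in both PEG gels. Set beside 16.8% of all tested genes called in non-degradable PEG against Matrigel, 1 of the 8 factors was called. In degradable PEG against Matrigel 1 of 8 was called, beside 12.2% of all genes. In the comparison of the PEG gels 0 of 8 were called, beside 1.28% of all genes, with 2 of 8 at an unadjusted p under 0.05 beside 14.8%. At that unadjusted threshold 2 of 8 factors passed in non-degradable PEG against Matrigel, beside 32.6% of all genes, and 1 of 8 in degradable PEG against Matrigel, beside 27.3%. DESeq2 likewise called 0 of 8 between the PEG gels. Counts this close to the background are no result about the set. The median log2 fold change over the 8 factors was -0.0163 for non-degradable PEG against Matrigel, 0.00363 for degradable PEG against Matrigel and -0.0236 between the PEG gels. The medians over all tested genes were -0.0021, -0.0163 and 0.00331. Of the 24 intervals (95%, 8 factors in 3 comparisons), 5 excluded 0. The bound farthest from 0 was 0.85 on the log2 scale, or 1.80-fold, for Hnf4g. Among the other 7 factors no interval reached beyond 0.49, or 1.40-fold.

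**Figure D1:**
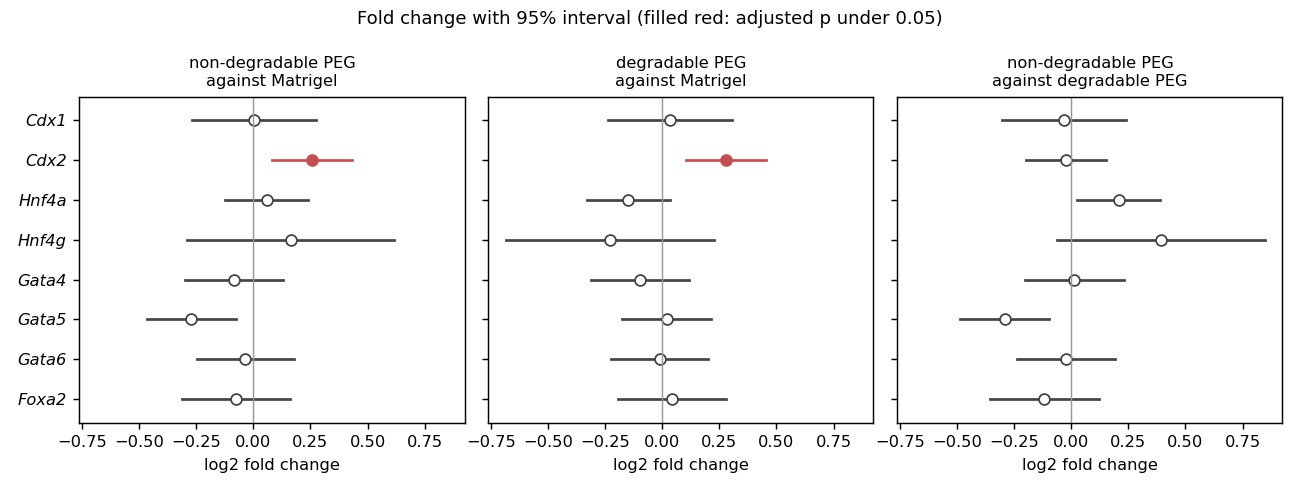
Log2 fold change (x axis) of each identity factor (y axis) in the 3 comparisons, with dots for the estimate and bars for its 95% interval from edgeR. Filled red dots have an adjusted p under 0.05: Cdx2 at 0.26 and 0.28 in the PEG gels against Matrigel.

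Cdx2, the caudal factor most closely tied to intestinal fate (ENSMUSG00000029646, chromosome 5, 147300805 to 147307270, minus strand, GRCm38), was measured at 247, 235 and 218 CPM in Matrigel. Its levels were 284, 252 and 301 CPM in non-degradable PEG and 272, 294 and 285 CPM in degradable PEG. All 6 PEG libraries were above all 3 Matrigel libraries. This lack of overlap also held for 43.4% of all genes in non-degradable PEG against Matrigel and for 30.4% in degradable PEG against Matrigel. Cdx2 rose by 19.4% in non-degradable PEG (log2 fold change 0.26 ± 0.080 SE, 95% interval 0.08 to 0.43, edgeR adjusted p = 0.0485). In degradable PEG it rose by 21.4% (0.28 ± 0.080 SE, interval 0.11 to 0.46, edgeR adjusted p = 0.0423). The PEG gels differed from each other by -0.02 (interval -0.20 to 0.15), within the spread between replicates.

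The Cdx2 calls lay close to the threshold, and single libraries decided them. In non-degradable PEG the edgeR adjusted p was 0.0651, 0.107 and 0.160 without Matrigel replicate 1, 2 or 3. It was 0.135 and 0.192 when replicate 1 or 3 of that gel was dropped, and 0.0630 without degradable PEG replicate 3. Nearly the same libraries mattered in the other gel. In degradable PEG it was 0.0541, 0.0926 and 0.147 without Matrigel replicate 1, 2 or 3. It was 0.0676 once replicate 1 of non-degradable PEG was dropped, and 0.0882 and 0.107 without degradable PEG replicate 2 or 3. The estimate stayed above 0 in each of these fits, from 0.20 to 0.32 and from 0.23 to 0.33 over all 17 alternatives in the 2 comparisons. With library totals in place of scaling, or with no filter on low counts, the adjusted p in non-degradable PEG was 0.0517 and 0.0574. A single edgeR test over the 3 gels gave an adjusted p of 0.0522 for Cdx2, and 16.3% of all genes passed that test.

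Cdx1, the second caudal factor, which is enriched in the crypt (ENSMUSG00000024619, chromosome 18, 61018862 to 61036199, minus strand), was at 219.9, 174 and 157 CPM in Matrigel. It was at 203, 174 and 174 CPM in non-degradable PEG and at 185, 209.5 and 169 CPM in degradable PEG. All 3 groups overlapped. The log2 fold change was 0.00 ± 0.124 SE in the non-degradable and 0.03 ± 0.124 in the degradable gel against Matrigel, with intervals of -0.27 to 0.27 and -0.24 to 0.31. Changes as large as that of Cdx2 in each gel therefore lie at or inside the edge of these intervals.

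The balance between the caudal factors was taken within each library, where a ratio of 2 counts does not depend on scaling. The log2 ratio of Cdx1 to Cdx2 counts was -0.17, -0.44 and -0.47 in the 3 Matrigel libraries. In non-degradable PEG it was -0.49, -0.53 and -0.78, and in degradable PEG -0.55, -0.49 and -0.75. Every PEG library lay below every Matrigel library, though the nearest pair, at -0.47 and -0.49, almost touched. The mean (SD, n = 3) was -0.36 ± 0.165 in Matrigel, against -0.60 ± 0.161 in the non-degradable and -0.60 ± 0.139 in the degradable PEG gel. Against Matrigel the difference was -0.24 in each PEG gel. Single libraries moved it: without Matrigel replicate 1 it was -0.15 in the non-degradable and -0.14 in the degradable gel, and without non-degradable PEG replicate 3 it was -0.15 in that gel. Over all libraries it had an exact 2-sided permutation p of 0.1, the smallest that 3 against 3 libraries allow, and 0.4 after Benjamini-Hochberg adjustment over 12 ratio tests.

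**Figure D2:**
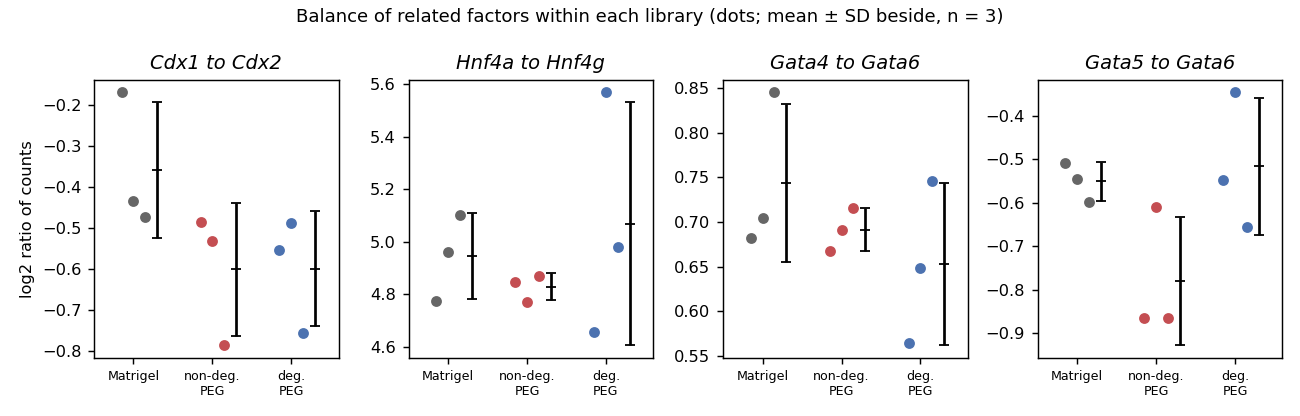
Log2 ratio of the counts of 2 related factors (y axis) in each library (dots) of the 3 gels (x axis), with the mean and SD beside (n = 3). The ratio of Cdx1 to Cdx2 lies at or above -0.47 in Matrigel and at or below -0.49 in both PEG gels, whereas Hnf4a to Hnf4g and Gata4 to Gata6 overlap throughout.

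Gata5, a GATA factor of heart and gut endoderm development (ENSMUSG00000015627, chromosome 2, 180325133 to 180334699, minus strand), was at 80.04, 68.2 and 62.4 CPM in Matrigel. It was at 56.9, 57.5 and 59.9 CPM in non-degradable PEG and at 71.7, 74.3 and 67.3 CPM in degradable PEG. The non-degradable PEG libraries were the 3 lowest of all 9, and the other gels overlapped. Against Matrigel the log2 fold change in non-degradable PEG was -0.27 ± 0.089 SE (interval -0.47 to -0.08), which missed the threshold (edgeR adjusted p = 0.0565). Replicate numbers deviated together in this comparison, and with the number as a block Gata5 passed (adjusted p = 0.0415), so 2 of 8 factors were called. With that block the calls over all genes, in either direction, rose as well, from 2504 to 3877. It also passed with library totals (adjusted p = 0.0453) and with no filter on low counts (0.0337), the settings in which Cdx2 did not, and in DESeq2 (0.0374). Of 9 fits with 1 library left out, 2 called Gata5: without Matrigel replicate 3 (edgeR adjusted p = 0.0299) and without degradable PEG replicate 2 (0.0476). In the other such fits the adjusted p ran from 0.0537 to 0.199. The highest was without Matrigel replicate 1, where the log2 fold change was -0.17. Of the 8 other alternatives, 4 called Gata5, those named above. With a filter of 10 CPM it missed (edgeR adjusted p = 0.0748). Against degradable PEG the log2 fold change was -0.29 ± 0.089 (interval -0.49 to -0.10, unadjusted p = 0.00715, edgeR adjusted p = 0.167). Lack of overlap between the PEG gels, seen for Gata5 and Hnf4a, held for 19% of all genes.

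The other GATA factors stayed within their spread. Gata4 (ENSMUSG00000021944, chromosome 14, 63198922 to 63271692, minus strand) was at 171.5 ± 10.3 CPM (SD, n = 3) in Matrigel, against 162 ± 18.9 in the non-degradable and 160.3 ± 15.6 in the degradable PEG gel. Gata6 (ENSMUSG00000005836, chromosome 18, 11052064 to 11085635, plus strand) was at 103 ± 10.05, 100.2 ± 11.05 and 102 ± 6.36 CPM in the same order. In all 3 comparisons the interval for Gata6 lay between -0.25 and 0.20 on the log2 scale. The log2 count ratio of Gata5 to Gata6 was -0.55 ± 0.045 in Matrigel, while the non-degradable gel had -0.78 ± 0.147 and the degradable gel -0.52 ± 0.157. Non-degradable PEG did not overlap with Matrigel in this ratio (difference -0.23, exact permutation p = 0.1, adjusted 0.4). It did overlap with degradable PEG (difference -0.26, exact permutation p = 0.2, adjusted 0.6). The ratio of Gata4 to Gata6 differed by -0.05, -0.09 and 0.04 in the 3 comparisons (exact permutation p from 0.4 to 0.6).

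Hnf4a, the nuclear receptor that maintains the enterocyte programme (ENSMUSG00000017950, chromosome 2, 163506808 to 163572910, plus strand), was at 862, 695 and 771 CPM in Matrigel. It was at 839, 765 and 819.7 CPM in non-degradable PEG and at 714, 675 and 710.4 CPM in degradable PEG. The PEG gels did not overlap, while Matrigel overlapped with each, and the lowest library of all was a degradable PEG one. Non-degradable PEG was above degradable PEG by 0.21 ± 0.082 SE on the log2 scale (interval 0.03 to 0.39, unadjusted p = 0.0286, edgeR adjusted p = 0.284), which is no call. Against Matrigel the non-degradable gel gave 0.06 and the degradable gel -0.15 (edgeR adjusted p = 0.667 and 0.276).

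Its paralog Hnf4g (ENSMUSG00000017688, chromosome 3, 3508030 to 3658052, plus strand) was the most variable factor. It was at 31.4, 22.3 and 22.5 CPM in Matrigel, against 29.2, 28.05 and 28.06 CPM in the non-degradable gel, and 28.3, 14.2 and 22.5 CPM in degradable PEG. Degradable PEG replicate 2 was the lowest of all 9 libraries, with 575 counts, and the highest library had 1228. The non-degradable PEG libraries lay closest together and inside the range of the others. Non-degradable against degradable PEG gave 0.39 ± 0.208 SE (interval -0.06 to 0.85, edgeR adjusted p = 0.409). That value was 0.16 without degradable PEG replicate 2 and 0.63 without its replicate 1. A single library thus moved the value by more than 1.5 times. Degradable PEG against Matrigel went from -0.23 to 0.00 without degradable PEG replicate 2.

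Foxa2, the pioneer factor (ENSMUSG00000037025, chromosome 2, 148042877 to 148046969, minus strand), was at 32.6 ± 4.68 CPM in Matrigel, 30.9 ± 2.64 in the non-degradable and 33.6 ± 2.18 in the degradable PEG gel. All groups overlapped, and its 3 log2 fold changes were -0.08, 0.04 and -0.12 (edgeR adjusted p from 0.640 to 0.839).

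**Figure D3:**
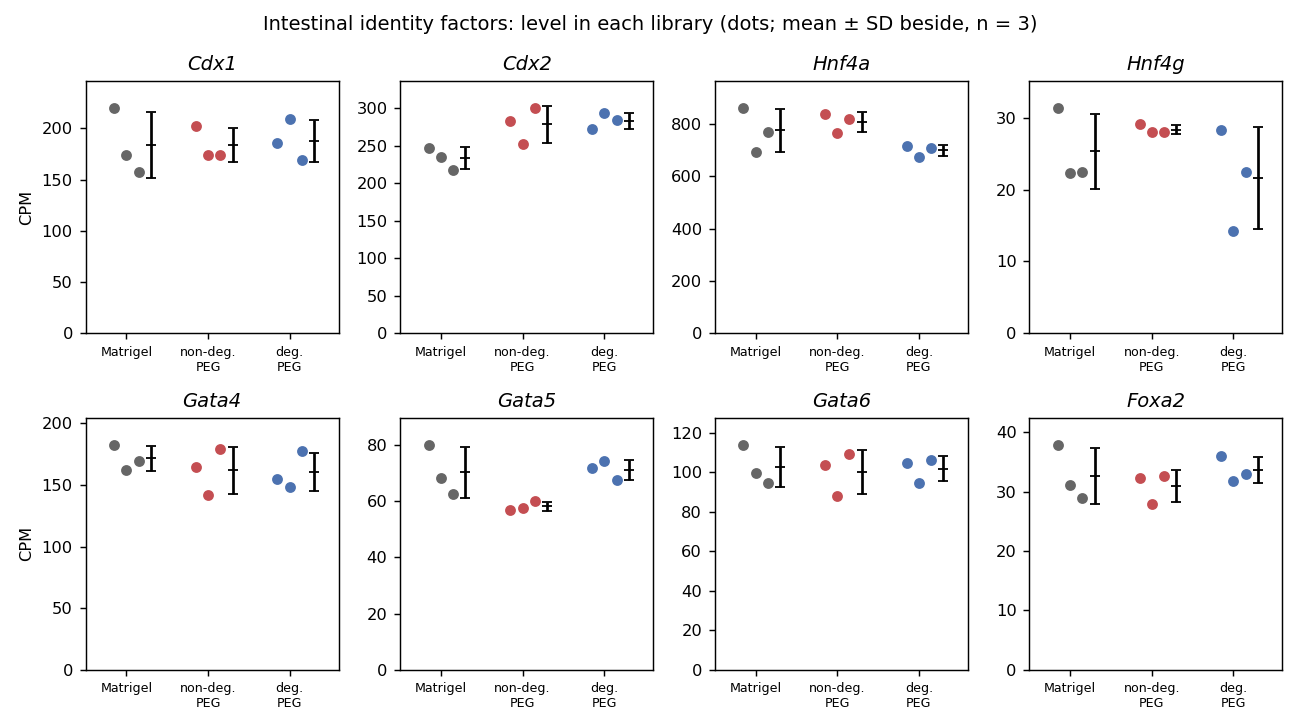
CPM (y axes, each from 0) of the 8 factors in each library (dots, replicates 1 to 3 from left to right) of the 3 gels (x axes), with the mean and SD beside (n = 3). Cdx2 is higher in all 6 PEG libraries than in Matrigel, Gata5 is lowest in the 3 non-degradable PEG libraries, and 1 degradable PEG library is low in Hnf4g at 14.2 CPM.

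Levels of different genes can be compared only per length, as CPM per kilobase of exon (RPKM). Hnf4a led in every gel, at 161 ± 17.3 RPKM (SD, n = 3) in Matrigel, 167 ± 7.93 in the non-degradable and 145 ± 4.48 in the degradable PEG gel, above 98.6% to 98.8% of tested genes. The caudal factors followed at similar levels. Cdx1 and Cdx2 were at 105 and 103 RPKM in Matrigel, at 105 and 123 in non-degradable PEG and at 107 and 125 in degradable PEG. Their ranges overlapped in Matrigel and non-degradable PEG, and in degradable PEG the lowest Cdx2 library (120.3) lay just above the highest Cdx1 library (119.7). Gata4 came next at 43.9, 41.4 and 41.1 RPKM. Gata5 was at 21.4, 17.7 and 21.7, Gata6 at 15.8, 15.4 and 15.6, and Foxa2 at 13.8, 13.1 and 14.2 RPKM. Gata6 and Foxa2 overlapped in every gel. Hnf4g was lowest, at 9.66, 10.8 and 8.24 RPKM, still above 57.7% to 64.6% of tested genes. Within each pair of neighbours not named as overlapping, the ranges over libraries were separate.

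The place of Gata6 in that order rests on its exons. Its annotated exons cover 6508 bases in all, against 3784 bases for its longest transcript. Taken per length of the longest transcript, Gata6 was at 27.1, 26.5 and 26.9 RPKM, above Gata5. Hnf4a remained first and Hnf4g last with either length.

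**Figure D4:**
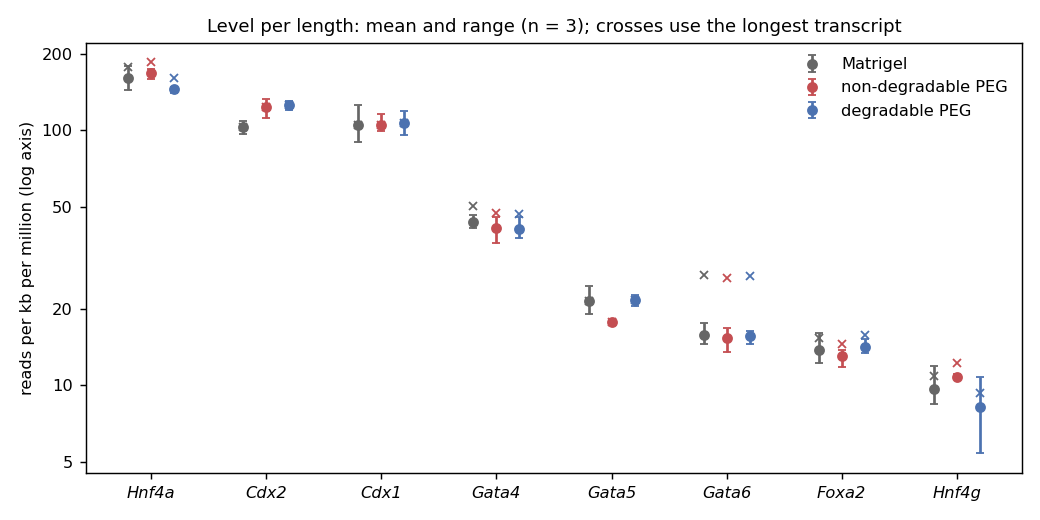
RPKM (y axis, log scale) of the 8 factors (x axis, ordered by mean) in the 3 gels, as the mean (dots) and the range over 3 libraries (bars). Crosses use the longest transcript, which lifts Gata6 from 15.8 to 27.1 in Matrigel and leaves Cdx1, Cdx2 and Gata5 unmoved.

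Spread over all 9 libraries was, for most factors, below the median of all tested genes, but not unusually small. The coefficient of variation ran from 8.07% for Gata6 to 21.04% for Hnf4g, beside a median of 12.3% over all tested genes. Only Hnf4g was above that median, but 48.3% of tested genes varied less than Gata5 and 26.2% less than Gata6. Genes of like level were not compared. Across the 9 libraries, which share 3 groups and a common scaling, Pearson correlations of log2 CPM ran from -0.27 to 0.87 over the 28 pairs of factors, and 6 exceeded 0.5. The closest pairs were Gata6 with Foxa2 (0.87), Gata4 with Gata6 (0.81) and Hnf4a with Hnf4g (0.75). With the gel means taken out these were 0.91, 0.85 and 0.61, and Cdx1 with Gata5 (0.83, from 0.51) took the third place. Of the 28 pairs, 7 were below 0, and 2 were below 0 once the gel means were taken out. These values describe 9 points and carry no test.

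Among 10641 other genes, those that followed each factor most closely over the 9 libraries were found by Pearson correlation of log2 CPM, here with a prior count of 2. For Cdx2 they were Prr15l (0.99) and Misp (0.98), the second an actin-bundling protein of microvilli. For Hnf4a they were Slc39a5 (0.97), a zinc transporter of the enterocyte's basolateral face, and Sult1c2 (0.95), a sulfotransferase. Hnf4g went with Arfgef2 (0.98) and Erap1 (0.97), Gata4 with Ret (0.92) and Rnf185 (0.92), and Gata5 with Nif3l1 (0.96) and Poldip3 (0.94). Cdx1 went with Bola3 (0.95) and Cmtm7 (0.94), Gata6 with Gnb1 (0.89) and Mrps2 (0.87), and Foxa2 with Prag1 (0.92) and Zfp574 (0.91). The highest of so many correlations over 9 points is large for any gene.

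The annotation was checked for transcripts that lie over the factors. Genes annotated over the factors took few reads. Gata5os, which overlaps 258 bases of Gata5 exons on the other strand, had 15 to 22 counts, or 0.525% to 0.883% of the Gata5 count. 1010001N08Rik, which overlaps 93 bases of Gata6 exons on the other strand, had 127 to 257 counts, or 3.10% to 5.87% of Gata6. It fell in degradable PEG against Matrigel (log2 fold change -0.63, edgeR adjusted p = 0.0201), while Gata6 gave -0.01. Hnf4aos shares no exon with Hnf4a and had 0 to 4 counts.

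Other transcription factors of gut endoderm were read beside these 8. Of 22 such factors, all tested, 8 rose and 2 fell in non-degradable PEG against Matrigel, beside 9.71% and 7.13% of all genes, with a median log2 fold change of 0.15. In degradable PEG 6 rose and 2 fell, beside 7.42% and 4.79%, with a median of 0.02. Isx, an intestine-specific homeobox gene that Cdx2 is known to activate, rose from 1.08 ± 0.873 CPM (SD, n = 3) in Matrigel to 191 ± 18.6 in the non-degradable and 119 ± 12.8 in the degradable PEG gel ( edgeR adjusted p = 1.35e-06 and 4.76e-06). Elf3, an epithelial ETS factor, rose from 249.9 CPM to 536 and 517 CPM (adjusted p = 4.51e-04 and 6.86e-04). Sox9, a factor of crypt base and Paneth cells, rose from 186 to 239 and 299 CPM (adjusted p = 0.0147 and 5.26e-04). Rxra, the partner of many nuclear receptors, fell from 63.4 to 45.9 and 40.9 CPM (adjusted p = 0.00408 and 8.76e-04). Creb3l3, a regulator of lipid genes, was the 1 factor of the 22 called between the PEG gels, at 4.03 CPM in non-degradable and 0.9004 CPM in degradable PEG (adjusted p = 0.0214), beside 0.814% of all genes. Other factors did not pass in either PEG gel against Matrigel, among them Foxa1, Foxa3, Tcf7l2 and Vdr. Without replicate 3 of Matrigel or of non-degradable PEG the 8 rising factors became 5 and 4, and Creb3l3's single call between the PEG gels went to 0 of 22 without non-degradable PEG replicate 1 or degradable PEG replicate 1 or 2.

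Cofactors of GATA and HNF4 proteins came next. Of 12 listed, 10 were tested. In non-degradable PEG against Matrigel 1 rose: Ppargc1b, a coactivator of nuclear receptors, at 8.96 CPM in Matrigel and 13.2 CPM there (log2 fold change 0.56, edgeR adjusted p = 0.0426), 1 of 10 beside 9.71% of all genes. That call was lost without any 1 Matrigel library, replicate 1 or 3 of non-degradable PEG or replicate 3 of degradable PEG. None of the 10 was called in the other comparisons by edgeR. Zfpm1, which binds GATA factors, gave 0.01 and -0.20 against Matrigel. Zfpm2 and Nr0b2 had at most 1 and 2 counts in a library.

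Genes that HNF4 factors are known to drive were then set beside the factors. Of 18 lipid export and brush border genes, 17 were tested. In non-degradable PEG against Matrigel 7 rose and 1 fell, beside 9.71% and 7.13% of all genes, with a median log2 fold change of 0.36. In degradable PEG 2 rose and 4 fell, beside 7.42% and 4.79%, with a median of -0.05. Between the PEG gels 6 were higher in the non-degradable gel and 0 lower, with a median of 0.54, beside 0.814% of all genes called higher. With the replicate number as a block, 11 of 17 rose in non-degradable PEG against Matrigel. That block also raised the calls over all 14870 tested genes, in either direction, from 2504 to 3877.

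Mep1b, a brush border metalloprotease, was at 22.5, 22.7 and 19.3 CPM in Matrigel. It was at 40.3, 41.3 and 45.9 CPM in non-degradable PEG and 25.2, 25.9 and 28.1 CPM in degradable PEG. The 3 gels did not overlap. It rose by 0.98 ± 0.089 SE on the log2 scale in non-degradable PEG (edgeR adjusted p = 1.03e-04) and was 0.69 ± 0.089 above degradable PEG there (adjusted p = 0.0109). Mttp, which loads lipid onto apolipoprotein B, rose from 177 ± 15.1 to 298 ± 46.5 CPM in non-degradable PEG (edgeR adjusted p = 0.00243) and was at 171 ± 23.5 CPM in degradable PEG. Apoa1, a lipoprotein component, rose from 0.594 to 1.92 CPM in non-degradable PEG (adjusted p = 0.00927) and was at 0.291 CPM in degradable PEG. Fabp2, the intestinal fatty acid binding protein, fell from 48.4 to 31.9 and 18.5 CPM (adjusted p = 0.0406 and 7.43e-04), the first call being lost without Matrigel replicate 1 or any 1 library of non-degradable PEG. Myo7b, a motor at microvillus tips, rose from 263 to 315 and 330.4 CPM (adjusted p = 0.0310 and 0.0131).

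Fabp1, whose upstream window held 3 CDX matches, was at 28.6, 9.03 and 12.2 CPM in Matrigel. It was at 36.6, 21.01 and 40.5 CPM in non-degradable PEG and at 6.44, 2.80 and 4.37 CPM in degradable PEG. The PEG gels did not overlap, and Matrigel lay between them with 1 library inside the non-degradable range. Fabp1 fell in degradable PEG against Matrigel (log2 fold change -1.87 ± 0.435 SE, edgeR adjusted p = 0.0175) and differed by 2.85 ± 0.44 between the PEG gels (adjusted p = 0.0152). The Fabp1 call against Matrigel was lost without Matrigel replicate 1 or degradable PEG replicate 3. Over the same libraries the uncalled differences between the PEG gels were 0.39 for Hnf4g, 0.21 for Hnf4a and -0.02 for Cdx2.

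The difference between the PEG gels in this list rested on single libraries. Without degradable PEG replicate 2, 0 of 17 were called, and without non-degradable PEG replicate 1 the count was 1. Calls over all genes between the PEG gels, 190 with all libraries, also changed with the library left out, as given at the end. Such losses, here and in the lists below, are therefore no result about a list. Leaving out each of the other 7 libraries gave 5 to 7. In degradable PEG against Matrigel, the 4 that fell became 2 without Matrigel replicate 1 or degradable PEG replicate 2, and the 2 that rose ranged from 0 to 3.

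A second HNF4 list covered fatty acid oxidation. Of 13 genes, all tested, 2 rose in non-degradable PEG, beside 9.71% of all genes, among them the peroxisomal enzyme Ehhadh (0.49, edgeR adjusted p = 0.0181). In degradable PEG 2 fell, beside 4.79% of all genes, among them Hadhb of the mitochondrial trifunctional protein (-0.31, edgeR adjusted p = 0.0327). None was called between the PEG gels, where Acadm had the smallest p (adjusted p = 0.133). The 2 that rose became 1 without Matrigel replicate 1 or 2 or replicate 3 of non-degradable PEG, and the 2 that fell became 1 without any 1 Matrigel library or degradable PEG replicate 1 or 2.

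**Figure D5:**
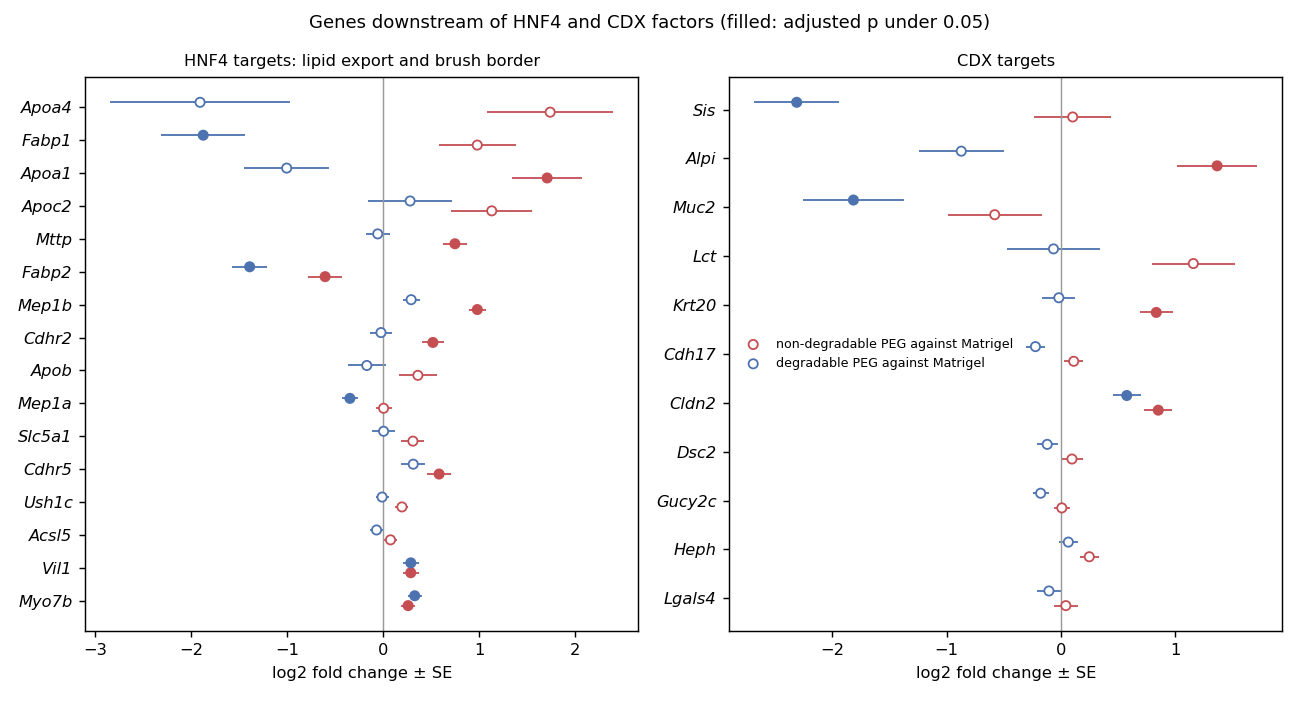
Log2 fold change (x axes, with SE bars) against Matrigel of 16 of the 17 tested lipid export and brush border targets of HNF4 (left) and of the 11 CDX targets (right), red for non-degradable and blue for degradable PEG, filled where the adjusted p was under 0.05. Genes are ordered by the difference between the PEG gels, and the upper ones, such as Fabp1 and Sis, lie far to the left in degradable PEG.

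CDX targets were 11 genes, all tested. In non-degradable PEG against Matrigel 3 rose and 0 fell, beside 9.71% and 7.13% of all genes, with a median of 0.11. With the replicate number as a block 5 rose, while calls over all genes, in either direction, went from 2504 to 3877. In degradable PEG 1 rose and 2 fell, beside 7.42% and 4.79%, with a median of -0.12, the count of 2 becoming 1 without Matrigel replicate 1 or degradable PEG replicate 2. Between the PEG gels 3 were higher in the non-degradable gel, beside 0.814% of all genes, and 0 lower, beside 0.464%, with a median of 0.33, and 0 were called without non-degradable PEG replicate 1 or degradable PEG replicate 2. Cldn2, a pore-forming claudin of the crypt, rose from 243 to 439 and 363 CPM (edgeR adjusted p = 9.98e-04 and 0.0107). Krt20, a keratin of mature epithelium, rose from 27.6 ± 2.59 to 49.2 ± 9.63 CPM in non-degradable PEG (adjusted p = 0.00295) and was at 27.2 ± 3.96 CPM in degradable PEG. Muc2, the secreted mucin, was at 3.73, 2.49 and 1.05 CPM and fell in degradable PEG (adjusted p = 0.0221).

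Sis and Alpi, whose windows are shown above, differed most between the PEG gels among these. Sis was at 51.2, 28.5 and 24.2 CPM in Matrigel. Its levels were 38.8, 23.6 and 48.7 CPM in non-degradable PEG and 10.02, 4.03 and 6.85 CPM in degradable PEG. Matrigel and non-degradable PEG overlapped, and the degradable PEG libraries were below all others. It fell in degradable PEG (log2 fold change -2.31 ± 0.371 SE, edgeR adjusted p = 0.0023) and differed by 2.41 ± 0.372 between the PEG gels (adjusted p = 0.0152). Alpi was at 7.27, 3.52 and 3.48 CPM in Matrigel, against 12.8, 6.43 and 17.3 CPM in the non-degradable gel and 2.92, 2.33 and 2.51 CPM in degradable PEG. It rose in non-degradable PEG (1.37 ± 0.352 SE, edgeR adjusted p = 0.0230), a call lost without Matrigel replicate 2 or 3 or replicate 1 or 3 of non-degradable PEG. It gave -0.87 in degradable PEG (adjusted p = 0.156) and differed by 2.24 ± 0.370 between the PEG gels (adjusted p = 0.0202).

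Genes of neighbouring organs and of other gut regions were counted beside the factors. Of 17 stomach genes 5 were tested, and Gkn1, Gkn2, Muc6 and Nkx6-3 had 0 counts in every library. Sox2, the foregut factor, averaged at most 0.00862 CPM in a gel. Anxa10 rose in non-degradable PEG from 0.253 to 1.77 CPM (edgeR adjusted p = 4.16e-04), and Irx5 fell from 36.9 to 27.03 CPM (adjusted p = 0.00875), 1 of 5 each beside 9.71% and 7.13% of all genes, while 0 of 5 passed in degradable PEG. Anxa10 was the 1 stomach gene called between the PEG gels (adjusted p = 0.0298), beside 0.814% of all genes, and the call was lost without replicate 1 or 3 of non-degradable PEG or replicate 2 or 3 of degradable PEG.

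Of 8 proximal bowel genes, all tested, 3 rose and 1 fell in non-degradable PEG, beside 9.71% and 7.13% of all genes, with a median of 0.84. With the replicate number as a block 5 rose, while calls over all genes, in either direction, went from 2504 to 3877. Npc1l1, the cholesterol importer, rose from 27.7 to 63.8 CPM (adjusted p = 0.00221), Cybrd1 from 1.91 to 6.88 CPM (adjusted p = 0.0107), and Ada, adenosine deaminase, fell from 55.1 to 41.5 CPM (adjusted p = 0.0107), a call lost without non-degradable PEG replicate 3. In degradable PEG 1 fell, Fabp1, beside 4.79% of all genes. Between the PEG gels 3 were higher in the non-degradable gel, Fabp1, Slc40a1 and Npc1l1, beside 0.814% of all genes, and this became 0 without non-degradable PEG replicate 1 or degradable PEG replicate 2, and 1 without non-degradable PEG replicate 3 or degradable PEG replicate 1. None of 4 ileal genes had enough counts to be tested. Of 8 colon genes 4 were tested and 0 called by edgeR in any comparison. Hoxb13, a posterior homeobox gene, was at 11.02, 15.7 and 13.5 CPM. Of 10 liver and pancreas genes 5 were tested, of which 1 rose and 1 fell in non-degradable PEG, beside 9.71% and 7.13% of all genes, and 1 rose and 2 fell in degradable PEG, beside 7.42% and 4.79%. Alb fell from 0.402 to 0.105 and 0.0518 CPM (adjusted p = 0.0213 and 0.0061), Tat rose from 0.183 to 0.713 and 1.57 CPM (adjusted p = 0.0149 and 0.00104), and Ttr fell from 5.43 to 2.53 CPM in degradable PEG (adjusted p = 0.0306). In non-degradable PEG the Alb call was lost in DESeq2 and without Matrigel replicate 3 or replicate 1 or 2 of that gel, and the Tat call without its replicate 3. In degradable PEG the 2 that fell became 1 without Matrigel replicate 1 or 3 or degradable PEG replicate 2 or 3.

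Markers of the cell types of the gut lining moved between gels beside the factors. In bulk RNA, fewer cells of a type and less RNA per cell cannot be told apart. Summed over its list, Paneth marker level ran from 803 to 1596 CPM in Matrigel, 309 to 494 in the non-degradable and 361 to 400.4 in the degradable PEG gel. The goblet sum ran from 569 to 1035, from 188 to 254 and from 134 to 197 CPM. The enteroendocrine sum ran from 90.5 to 151, from 18.2 to 24.4 and from 25.1 to 35.9 CPM. None of these sums overlapped between Matrigel and a PEG gel, and each was lower in PEG, whereas Cdx2 was higher. For single genes, lack of overlap in either direction held for 43.4% of all genes in non-degradable PEG against Matrigel. In degradable PEG against Matrigel it held for 30.4%. Of all genes 7.13% were called lower in non-degradable and 4.79% in degradable PEG. Of 6 Paneth markers 4 fell in each PEG gel. Mmp7 was higher in degradable PEG, beside 7.42% of all genes, a call lost without Matrigel replicate 2 or 3 or degradable PEG replicate 1. Of 7 goblet markers 3 and 4 fell, and of 8 tested enteroendocrine markers 6 and 5 fell. For these 3 lists edgeR called 0 markers between the PEG gels.

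Stem cell markers summed to between 2838 and 3028 CPM in Matrigel, 1945 and 2058 in non-degradable PEG, and 2337 and 2539.97 in degradable PEG. Most of each sum was Smoc2, at a mean of 1944, 1157 and 1386 CPM in that order. It was the only marker of the 6 called lower in degradable PEG, so the lower sum there rests largely on this gene. In non-degradable PEG 4 of 6 fell and Ascl2 rose, beside 7.13% and 9.71% of all genes, and in degradable PEG 1 fell and 1 rose, beside 4.79% and 7.42%. The count of 4 was 2 without Matrigel replicate 1 or 3 or any 1 of the non-degradable PEG replicates. Axin2, a Wnt target, was the 1 of 6 called lower in non-degradable than in degradable PEG (edgeR adjusted p = 0.0241), beside 0.464% of all genes. The Axin2 call was lost without replicate 1 or 2 of the first gel or 1 or 3 of the second. Lgr5, the receptor that marks these stem cells, gave 0.02 and -0.33 (edgeR adjusted p = 0.927 and 0.127). Enterocyte markers summed to between 251 and 355 CPM in Matrigel, 255 and 384 in non-degradable PEG, and 162 and 187 in degradable PEG. Of the 7, 1 rose and 1 fell in non-degradable PEG, beside 9.71% and 7.13% of all genes. With the replicate number as a block 4 rose, while calls over all genes, in either direction, went from 2504 to 3877. In degradable PEG 3 fell, beside 4.79%, and 4 were higher in the non-degradable than in the degradable gel, beside 0.814%. The last count became 0 without non-degradable PEG replicate 1 or degradable PEG replicate 2, and 2 without degradable PEG replicate 3.

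Pan-epithelial markers summed to between 4781 and 5083, 5099.9 and 6124, and 5561 and 6290.04 CPM, with 2 and 4 of 6 higher in the PEG gels, beside 9.71% and 7.42% of all genes. The 2 became 1 without any 1 Matrigel library or non-degradable PEG replicate 1 or 3. Between the PEG gels 1 of the 6, Krt18, was lower in the non-degradable gel, beside 0.464% of all genes. That call was lost without Matrigel replicate 3 or replicate 1 or 2 of the non-degradable or 2 or 3 of the degradable gel. Mesenchymal markers summed to between 124 and 273, 83.3 and 118, and 92.04 and 158 CPM, nearly all of it Vim. Vim fell in non-degradable PEG (edgeR adjusted p = 0.0129), 1 of 3 tested, beside 7.13% of all genes. Of 5 endothelial markers 0 were tested. Of 6 blood markers 2 were tested. Itgam, also present at low level here, rose in non-degradable PEG from 1.40 to 3.26 CPM (edgeR adjusted p = 0.00311), 1 of 2 beside 9.71% of all genes. The part of these cell type markers in the differences of Cdx2, Gata5 and the downstream genes was not tested.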

How the data were processed

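Polyadenylated RNA of 9 libraries was measured, 3 in each of 3 gels, and the authors deposited 1 table of gene counts per library. Per the submitters' processing notes, the tools were cutadapt 1.3, STAR 2.4.2a and HTSeq 0.6.1 on GRCm38. Per the labels' protocols, libraries came from a stranded mRNA kit. For counting, neither the annotation nor the strand setting is given in the sources used here, and genes overlapping on opposite strands are therefore uncertain. The 5 tally rows were removed; featureless reads were 7.29% to 11.2% of assigned, featureless and ambiguous reads, and ambiguous reads 1.09% to 1.16%. GENCODE M21 gave symbols to 46005 of 46517 genes.

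The function filterByExpr kept 14870 genes. Each comparison was a contrast in 1 edgeR 4.0.16 quasi-likelihood fit (R 4.3.3) of all 9 libraries with 1 mean per gel, 6 residual degrees of freedom and Benjamini-Hochberg adjustment over all tested genes. Each standard error was obtained by dividing the size of the log2 fold change by the root of its F statistic. RPKM used union exon length. Correlations among the factors used log2 CPM with no prior count, and those of factors with other genes used a prior count of 2. DESeq2 1.42.0 was an alternative, beside other scalings and filters, a fit of the compared gels only, a robust prior, the replicate number as a block and leaving out each library. Libraries correlated at 0.969 to 0.995 over genes, and none was treated as a duplicate. Deviations from gel means of same-numbered libraries correlated at 0.331, 0.176 and 0.186 in non-degradable PEG against Matrigel, all above the 0.1 taken as pairing, and blocked values stand beside results there. The fit was tested on simulated counts for non-degradable PEG against Matrigel. It called 73 of 100 genes changed 2-fold and 9 of 100 changed 1.25-fold, in either direction. Of its 88 calls 6 were false.

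The factors and gene lists were chosen with earlier results of these data known. Named were the 8 factors, up to 3 called genes with the smallest p of a list in a comparison (for cell type lists, mostly counts and sums) and, for each factor, the 2 genes correlating best among those with a mean of at least 5 CPM. Other list members were named after their values were seen. Results for some list members are not reported here.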

Additional observations from a re-analysis of the deposited data

How the results depend on the processing

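The sign of Cdx2 in both PEG gels against Matrigel, and of Gata5 in non-degradable PEG against both other gels, held under all 17 alternatives of each comparison. In 14 of the 24 factor comparisons 35 values changed sign. After the change none lay beyond 0.105 on the log2 scale, and the lowest adjusted p among them was 0.619. Before it the largest was -0.23, for Hnf4g in degradable PEG against Matrigel. For non-degradable PEG against Matrigel, Cdx1 was -0.00925 with library totals, -0.0115 with no filter and -0.000601 with the compared gels only. Leaving out 1 library reversed it to between -0.105 and -0.00337, and took Cdx1 over all such fits from -0.105 to 0.148, Hnf4a from -0.0141 to 0.137, Gata4 from -0.164 to 0.00259, Gata6 from -0.102 to 0.0514 and Foxa2 from -0.162 to 0.0409. For degradable PEG against Matrigel, Gata6 was 0.00281 with library totals and 0.0147 with a filter of 10 CPM. Leaving out 1 library took Cdx1 from -0.0678 to 0.185, Hnf4g from -0.467 to 0.00221, Gata5 from -0.0604 to 0.125, Gata6 from -0.0687 to 0.0712 and Foxa2 from -0.0386 to 0.164. Between the PEG gels, Gata4 was -0.0144 with library totals, and leaving out 1 library took Cdx1 from -0.113 to 0.0480, Cdx2 from -0.0810 to 0.0445, Gata4 from -0.0661 to 0.101 and Gata6 from -0.0891 to 0.0641. The cause was not tested. In non-degradable PEG against Matrigel the 1 factor called was Gata5 and not Cdx2 with library totals and with no filter.

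Counts of called genes moved more. In non-degradable PEG against Matrigel, 2504 became 1511 with a filter of 10 CPM (fewer genes tested), 3877 with the replicate block and 1189 to 3247 with 1 library left out. The factors called were 2 with DESeq2, 2 with the replicate block and 0 to 2 with 1 library left out. In degradable PEG against Matrigel, 1815 became 948 with 10 CPM, 2783 with the replicate block and 1086 to 2395 with 1 library left out, and the factors called were 0 to 1. For the PEG gels against each other, 190 became 521 with no filter, 91 with 10 CPM, 512 with DESeq2, 542 with the replicate block and 19 to 242 with 1 library left out. In the last 2 comparisons only the replicate 2 libraries fell below the 0.1 taken as pairing, with correlations of 0.0712 and 0.0197. Replicates 1 and 3 were above it, at 0.258 and 0.226 in degradable PEG against Matrigel. Between the PEG gels they were at 0.288 and 0.511. Of 9 libraries 8 correlated best with their own number, a hint from the data and not the design. Whether same-numbered libraries share a source was not tested. Blocked values for single factors and lists are given only for non-degradable PEG against Matrigel. With a filter of 10 CPM, which tests fewer genes, 2 Paneth and 2 enteroendocrine markers were called lower in each PEG gel against Matrigel. With 3 libraries per gel, the standard error of 0.080 for Cdx2 leaves a difference of its size close to the threshold, and the more variable Hnf4g had one of 0.208 between the PEG gels.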
